A study of Arabidopsis thaliana with 4 samples.

Results

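Cysteine-rich receptor-like kinases (CRKs) of Arabidopsis thaliana were followed in ribosome footprint libraries. The members were the nuclear genes whose deposited annotation names a cysteine-rich RLK or cysteine-rich receptor-like protein, which gave 41 genes of the 27554 genes listed with an identifier. The rule used no measured value. Of these 41 genes, 37 lie on chromosome 4, 2 on chromosome 1, 1 on chromosome 3 and 1 on chromosome 5. Of the 41, 28 passed the filter on low counts and were tested, 9 had counts too low to test and 4 had no count in any library.

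CRKs sit in the plasma membrane. Outside the cell they carry cysteine motifs of the DUF26 domain, a transmembrane helix follows, and a serine/threonine kinase domain lies in the cytosol. The family is known for roles in pattern-triggered immunity, in responses to reactive oxygen species and in hypersensitive-like cell death, and many of its genes stand in tandem arrays.

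The transgenic plants were 6-day-old seedlings of line 5, which constitutively overexpresses ClpD, a chloroplast Clp ATPase chaperone, in the wild-type background. They were set against 6-day-old wild-type (WT) seedlings, with 2 libraries per group, both from tissue labelled whole seedlings. ClpD overexpression was used to make chloroplast precursor protein accumulate. All plants of the transgenic group belong to 1 line, so an effect of ClpD cannot be told apart from another property of that line, and the promoter is not given in the sources used here. The labels do not state that the 2 libraries of a group were grown separately, so the p-values measure only the spread between these libraries, which may be technical.

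The libraries held 42291527 and 38990360 footprint counts in line 5, against 29772406 and 27260818 in WT. ClpD itself (listed as ERD1, AT5G51070) had 3112 and 3302 CPM in line 5, against 167 and 175 CPM in WT, an 18.8-fold difference. CPM is the footprint count relative to library size, computed here on the TMM-scaled library size, a scaling that assumes most genes do not change. The shoot markers listed were lower or not called in line 5 (5 of 10 called lower), with a summed level of 22728 and 19913 CPM in line 5 and 31331 and 34966 CPM in WT. Those called lower were GLK1, LHCB2.1, LHCB1.1, CAO and FAD5. RBCS1A, KCS10, STM, FAMA and MYB60 were not called. Most of the summed level comes from RBCS1A, LHCB2.1 and LHCB1.1, so the sum says little about the other shoot markers. Of 12 root markers 5 could be tested and 1 was called lower, and their summed level was 24.2 and 22.1 CPM in line 5, against 36.7 and 38.2 CPM in WT. The root marker called lower was SCR, with 15.9 and 13.6 CPM in line 5, against 25.9 and 29.8 CPM in WT (log2 -0.92, edgeR adjusted p = 0.0249). SHR had 6.23 and 5.19 CPM in line 5, against 6.24 and 5.82 CPM in WT (log2 -0.080), and was not called. The phosphate transporter PHT1;1 had 0.990 and 1.71 CPM in line 5, against 3.03 and 1.57 CPM in WT, and was not called. WER (0.638 and 0.397 CPM in line 5, 0.529 and 0.330 CPM in WT) was not called. RBOHC (0.198 and 0.304 CPM in line 5, 0.494 and 0.248 CPM in WT) was not called either. PIN2, not tested, had 0.176 and 0.327 CPM in line 5, above 0.0353 and 0.124 CPM in WT. NRT2.1, also not tested, had 0.0660 and 0.234 CPM in line 5, against 0.106 and 0.248 CPM in WT. The others were at or near 0, with no count of the iron transporter IRT1 and at most 8 counts in a library of EXPA7, COBL9, SMB and CASP1. The tissue label is whole seedlings, and whether roots were harvested is not stated further. Of 4 senescence markers 2 could be tested. NYE1, a factor of chlorophyll breakdown, was called lower, with 13.4 and 9.86 CPM in line 5 and 28.9 and 30.7 CPM in WT. ORE1, a senescence transcription factor, was not called and had 2.09 and 2.24 CPM in line 5, against 1.09 and 1.36 CPM in WT, both line 5 libraries above WT. The late marker SAG12 had no count. What part these markers have in the CRK values was not tested. A bulk footprint count also cannot separate fewer cells of a type from fewer footprints per cell, or more mRNA from denser ribosomes on each mRNA.

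Levels of different CRK genes were compared on the authors' FPKM, which divide by gene length and are given as deposited, without TMM scaling. CRK10 (AT4G23180) had the highest level in every library, with 123 and 133 FPKM in line 5 and 167 and 157 FPKM in WT. Its gain-of-function allele is known to dwarf the plant and collapse xylem vessels. CRK40 (AT4G04570) was second in both groups, with 60.7 and 57.8 FPKM in line 5 and 44.0 and 57.9 FPKM in WT. The WT libraries of CRK40 lie further apart than its line 5 libraries, so the groups do not separate. CRK29 (AT4G21410) had rank 3 in line 5, with 43.3 and 54.0 FPKM, and rank 12 in WT, with 4.98 and 5.04 FPKM. CRK29 and CRK40 lie close together in line 5, where the gap between their means is no wider than the gap between the CRK29 libraries, and CRK11 (AT4G23190) follows at a mean of 47.1 FPKM in line 5, against 33.1 FPKM in WT. In line 5 each library had 20 CRK genes at 1 FPKM or more, against 16 in each WT library.

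**Figure D1:**
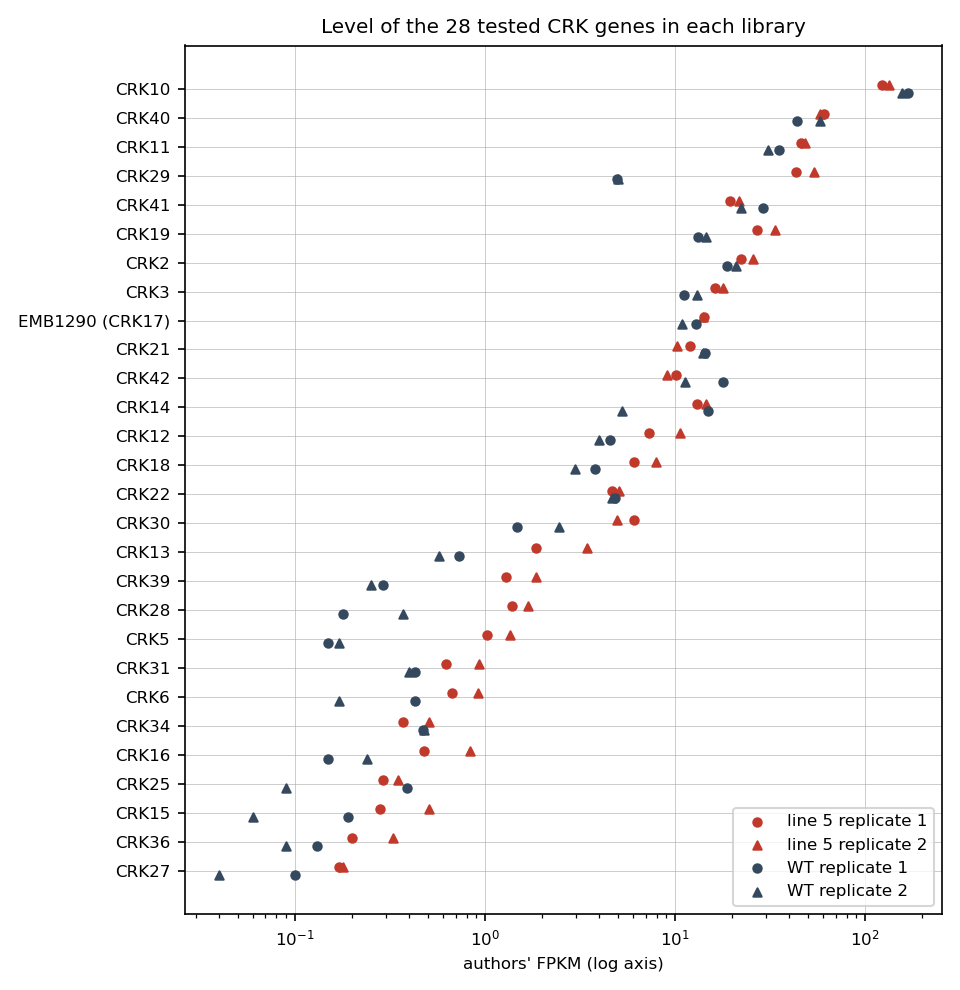
Level of each of the 28 tested CRK genes in each library, as the authors' FPKM on a log axis, with line 5 in red and WT in dark blue and a symbol for each replicate. CRK10 is at the top in all 4 libraries (123 and 133 FPKM in line 5, 167 and 157 FPKM in WT), and CRK29 stands at 43.3 and 54.0 FPKM in line 5, against 4.98 and 5.04 FPKM in WT.

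Summed over the 41 genes, the family had 779 and 835 CPM in line 5 and 819 and 814 CPM in WT. The total of 807 ± 39.1 CPM in line 5 thus differed from the 817 ± 3.74 CPM in WT (SD, n = 2 each) by less than the spread of the line 5 libraries. That closeness depends on the scaling. On library totals without TMM the sums were 837 and 917 CPM in line 5, against 780 and 724 CPM in WT, and in the authors' FPKM, also without TMM, they were 440 and 481 FPKM in line 5, against 402 and 380 FPKM in WT. On both of these scales the groups do not overlap. With 2 against 2 libraries a two-sided exact permutation test cannot give a p under 0.333, so the sums and shares are described without a test. Shares of the total within a library do not depend on the scaling. CRK10 held 28.0% and 27.6% of the summed FPKM in line 5, against 41.6% and 41.2% in WT. CRK29 held 9.82% and 11.2% in line 5, against 1.24% and 1.33% in WT. Both line 5 libraries thus lie under WT for the CRK10 share and above WT for the CRK29 share.

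In the edgeR quasi-likelihood test over all 18737 genes, with a Benjamini-Hochberg adjusted p under 0.05 as the threshold, 8 of the 28 tested CRK genes were called higher in line 5 and 3 were called lower. Over all genes tested 15.4% were called, 6.72% higher and 8.72% lower, so 28.6% of the tested CRK genes stand above the share of higher calls, and 10.7% are close to the share of lower calls. Of the 8 genes called higher, 5 changed by at least 1 on the log2 scale, and none of the genes called lower did. That rule takes in 3.2% of all genes as higher and 4.83% as lower. The calls depend on both line 5 libraries: without line 5 replicate 1, and likewise without line 5 replicate 2, CRK29 was the only CRK gene still called, and calls over all genes went as low as 25 higher and 3 lower.

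CRK29 had the largest difference of the family. Its level was 68.3 and 84.8 CPM in line 5, against 8.85 and 9.86 CPM in WT. Both line 5 libraries lie far above both WT libraries. The difference was 8.19-fold, a log2 fold change of 3.03 with a standard error of 0.158 (adjusted p = 0.00458), which ranks CRK29 number 83 by size among the 1260 genes called higher. Its log2 fold change stayed between 2.87 and 3.18 with any library left out.

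CRK28 (AT4G21400), the neighbour of CRK29 on chromosome 4, is known to associate with the co-receptor BAK1 and to promote immune responses and cell death when overexpressed. It had 2.20 and 2.57 CPM in line 5, against 0.353 and 0.660 CPM in WT. The groups do not overlap, and the log2 fold change was 2.25 ± 0.352 (SE, adjusted p = 0.0255). Its level is far under that of CRK29, which the annotation places beside it. Sequence similarity between neighbouring CRK copies could divide footprints between them, and this was not tested.

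CRK5 (AT4G23130), whose overexpression is known to give cell death, had 1.78 and 2.48 CPM in line 5 and 0.282 and 0.330 CPM in WT. Each WT library held only 8 footprints of it, against 81 and 106 in line 5. The line 5 libraries were both higher, with a 6.91-fold difference (log2 2.79 ± 0.348 SE, adjusted p = 0.0191). CRK39 (AT4G04540) had 2.40 and 3.01 CPM in line 5, against 0.494 and 0.495 CPM in WT. The WT libraries of CRK39 lie together and well under both line 5 libraries, a 5.44-fold difference (log2 2.44 ± 0.276 SE, adjusted p = 0.0165).

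CRK13 (AT4G23210), whose overexpression is known to raise salicylic acid and resistance to Pseudomonas, had 3.15 and 5.51 CPM in line 5 and 1.45 and 1.07 CPM in WT. The line 5 libraries were both higher but differ between themselves, and the log2 fold change of 1.77 ± 0.363 (SE, adjusted p = 0.0385) ran from 1.32 to 2.12 with a library left out.

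CRK19, CRK12 and CRK18 rose less. CRK19 (AT4G23270), another member known for cell death on overexpression, had 49.6 and 60.0 CPM in line 5, against 27.4 and 32.4 CPM in WT. Its groups do not overlap, with a 1.83-fold difference (log2 SE 0.149, adjusted p = 0.0283). CRK12 (AT4G23200) had 13.5 and 19.1 CPM in line 5 and 9.42 and 8.63 CPM in WT, a 1.81-fold difference (log2 0.85 ± 0.198 SE, adjusted p = 0.0492). That call is the nearest to the threshold among the higher genes, and with CRK42 it was lost when a minimum count of 50 was used. CRK18 (AT4G23260) had 11.4 and 14.5 CPM in line 5, against 8.04 and 6.77 CPM in WT. It stood 1.75-fold higher (log2 0.80 ± 0.179 SE, adjusted p = 0.0446), and CRK12 and CRK18 were no longer called without WT replicate 2.

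The 3 genes called lower all changed by less than 1 on the log2 scale. CRK10, the most highly occupied member, had 224 and 235 CPM in line 5, against 346 and 341 CPM in WT. Both line 5 libraries lie under both WT libraries, and the replicates of each group differ little (229 ± 7.76 CPM in line 5 and 343 ± 3.96 CPM in WT, SD, n = 2 each). The log2 fold change was -0.58 ± 0.0970 (SE, adjusted p = 0.0273). CRK21 (AT4G23290) had 23.0 and 19.5 CPM in line 5, against 31.6 and 32.7 CPM in WT, with no overlap (log2 -0.60 ± 0.126 SE, adjusted p = 0.0401). CRK42 (AT5G40380), the member on chromosome 5, had 17.2 and 15.9 CPM in line 5 and 35.4 and 24.4 CPM in WT. Its WT libraries differ widely, and its adjusted p of 0.0499 (edgeR) is at the threshold, with a log2 fold change of -0.85 ± 0.200 SE. When counts were scaled by library totals alone, the median of all genes moved to 0.24 on the log2 scale and none of the 3 was called lower.

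**Figure D2:**
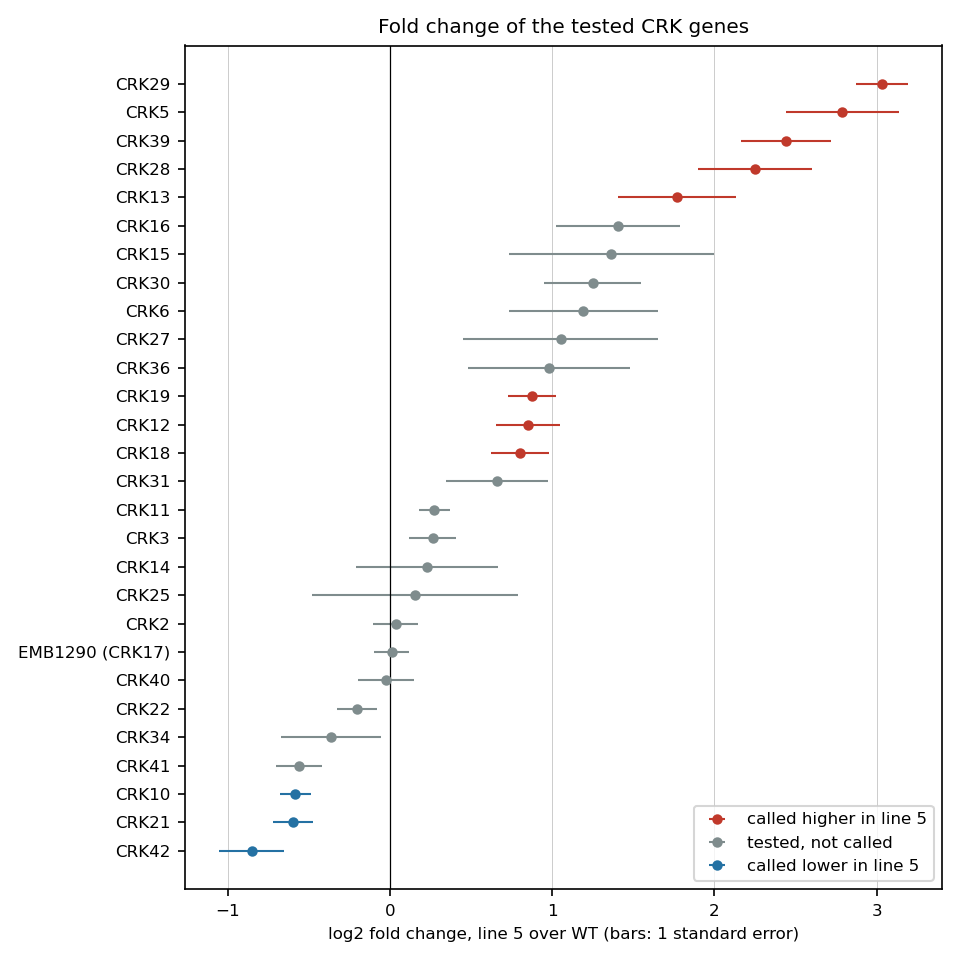
Log2 fold change, line 5 over WT, of the 28 tested CRK genes in the fit over all genes, with bars of 1 standard error and colours for higher, lower and not called. CRK29 is at 3.03, the 8 genes called higher run from 0.80 to 3.03, and the 3 called lower from -0.85 to -0.58.

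Without regard to the test, 17 of the 28 tested CRK genes had both line 5 libraries above both WT libraries (60.7%, where 34.7% of all tested genes did) and 6 had both under them (21.4%, against 33.4% of all tested genes). In the other 5 (CRK40, CRK17, CRK2, CRK25 and CRK14) the groups overlap. The log2 fold change was above 0 in 21 of the 28 genes (75.0%), and above 0 in 50.2% of all tested genes. Its median was 0.73 over the tested CRK genes and 0.0023 over all genes tested. The filter bears on these counts, since 6 CRK genes (CRK36, CRK25, CRK27, CRK5, CRK15 and CRK16) passed it only through their line 5 libraries. All 6 had a log2 fold change above 0, and all but CRK25 had both line 5 libraries above both WT libraries. The 17 and 21 genes thus include members that passed only through the group where they are high. The shares of 60.7% and 75.0% were not computed without them, so their distance from all genes is not evidence of an excess. In the 22 that pass on the WT libraries alone, 7 were called higher and 3 lower and the median was 0.27, where the 18074 genes of the table that pass the same way had 6.51% called higher and a median of -0.0088.

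Members with lower levels had the larger median difference. Of the 14 tested members with a mean under 5 FPKM, 4 were called higher and 0 lower by edgeR (7 and 0 at an unadjusted p under 0.05, 5 and 0 by DESeq2), with a median log2 fold change of 1.22 (all 6467 genes of that range: 5.32% higher, 4.25% lower, median 0.023). These 14 include all 6 that passed the filter only through line 5. Of the 14 members at 5 FPKM or more, 4 were called higher and 3 lower, with a median of 0.13 (all 12270 genes of that range: 7.47% higher, 11.1% lower, median -0.0046).

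Several of the best-measured members did not pass the test. CRK11, known to be induced by pathogens and oxidative stress, had 87.0 and 89.1 CPM in line 5, against 75.5 and 70.2 CPM in WT, with no overlap but a log2 fold change of only 0.27 ± 0.0972 (SE, adjusted p = 0.115). CRK2 (AT1G70520), which is known to phosphorylate the NADPH oxidase RBOHD, had 41.0 and 46.6 CPM in line 5 and 38.9 and 46.6 CPM in WT. Its line 5 values fall within the range of the WT values (log2 0.03 ± 0.137 SE). CRK3 (AT1G70530), next to CRK2, had 29.1 and 32.1 CPM in line 5, against 22.7 and 28.3 CPM in WT (log2 0.26 ± 0.147 SE, adjusted p = 0.260).

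CRK17, listed as EMB1290 (AT4G23250), had 27.9 and 27.4 CPM in line 5, against 28.9 and 26.0 CPM in WT, and CRK40 had 94.7 and 88.5 CPM in line 5, against 78.5 and 108 CPM in WT. The line 5 values of both genes fall inside the range of the WT values. Their log2 fold changes were 0.01 ± 0.110 and -0.03 ± 0.173 (SE). The sign of these near-zero differences, and that of CRK2, turned when a library was left out, and that of CRK40 also turned when counts were scaled by library totals alone.

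The uncalled genes nearest to the threshold were CRK30, CRK41 and CRK16. CRK30 (AT4G11460) had 11.9 and 9.62 CPM in line 5 and 3.28 and 5.82 CPM in WT (2.38-fold, log2 SE 0.299, adjusted p = 0.0518). CRK41 (AT4G00970) had 32.4 and 35.4 CPM in line 5, against 55.2 and 44.7 CPM in WT (log2 -0.56 ± 0.140 SE, adjusted p = 0.0566). CRK16 (AT4G23240) had 0.682 and 0.841 CPM in line 5 and 0.282 and 0.289 CPM in WT (log2 1.40 ± 0.382 SE, adjusted p = 0.0668). In all 3 the groups do not overlap. With DESeq2, 9 CRK genes were called higher and 4 lower, and they include the 8 and 3 called by edgeR plus CRK30 and CRK41. DESeq2 called 7.81% of the genes it gave an adjusted p as higher and 11.2% as lower. The authors' deposited table has 9 CRK genes higher and 4 lower at an FDR under 0.05 (5.15% and 7.5% of all its genes), the same 8 and 3 with CRK30 and CRK41. It rests on the same libraries, and DESeq2 is among the programs the submitters name. The authors' FDR runs close to the DESeq2 adjusted p (CRK12 at 0.0117 and 0.00966). The match is therefore not separate support for these calls. In that deposited table the authors' log2 fold change of CRK29 is 3.28 and that of CRK10 is -0.34. These 2 values are the log2 ratios of the group mean FPKM. In edgeR with library totals and no TMM these genes had 3.28 and -0.34 as well. For CRK16 the values differ, with 1.75 in the deposited table and 1.64 in that edgeR fit.

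The following family members fall outside the rule for naming genes, given with the processing below, and were picked after their values were seen. CRK6 (AT4G23140) and CRK36 (AT4G04490) are known, with CRK4, to associate with the flagellin receptor FLS2. CRK6 had 1.28 and 1.73 CPM in line 5, against 0.917 and 0.371 CPM in WT (log2 1.19 ± 0.459 SE, adjusted p = 0.136). CRK36 had 17 and 26 footprints in line 5, against 8 and 5 in WT (log2 0.98 ± 0.501 SE, adjusted p = 0.225). Neither passed the test, although the groups overlap in neither. CRK31 (AT4G11470) had 1.17 and 1.73 CPM in line 5, against 0.917 and 0.908 CPM in WT (log2 0.66). CRK34 (AT4G11530) had 0.704 and 0.958 CPM in line 5, against 1.02 and 1.11 CPM in WT (log2 -0.36). CRK22 (AT4G23300) had 8.78 and 9.30 CPM in line 5, against 10.2 and 10.6 CPM in WT (log2 -0.20). The groups of these 3 genes do not overlap, with line 5 above WT for CRK31 and under WT for CRK34 and CRK22 (CRK22 turned to 0.03 on library totals without TMM), and none of them was called.

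CRK14 (AT4G23220) had 24.3 and 26.5 CPM in line 5, against 31.4 and 11.8 CPM in WT. WT replicate 1 is the highest and WT replicate 2 the lowest of its 4 libraries, and its log2 fold change ran from -0.30 to 1.097 with a library left out. CRK25 (AT4G05200), with 25 and 28 footprints in line 5 and 24 and 5 in WT, behaved likewise (from -0.49 to 1.53). CRK15 (AT4G23230) had 22 and 38 footprints in line 5, against 11 and 3 in WT. The ratio of its scaled sums was 2.55, with a 95% exact counting interval of 1.41 to 4.95, and it was 5.49 without WT replicate 1 and 1.75 without WT replicate 2. CRK27 (AT4G21230) had 14 and 14 footprints in line 5 and 6 and 2 in WT, a ratio of 2.09 with an interval of 0.926 to 5.29, or 3.84 without WT replicate 1. These intervals cover counting error only.

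The 9 members with counts too low to test had at most 11 footprints in a library. CRK4 (AT3G45860), a further member that associates with FLS2, had 1 and 0 footprints in line 5, against 3 and 5 in WT. Both line 5 libraries are under both WT libraries, and the ratio of the scaled sums was 0.0745 with a counting interval of 0.00168 to 0.556. The upper bound passed 1 without line 5 replicate 2 (1.08) and without WT replicate 2 (1.33), and these intervals leave out the spread between libraries. CRK26 (AT4G38830) had 11 and 3 in line 5 and 3 and 0 in WT, a ratio of 2.78 with a counting interval of 0.776 to 15.1. Its groups overlap, and the ratio was 4.24 without line 5 replicate 2 and 1.23 without line 5 replicate 1. CRK20 (AT4G23280), whose overexpression is known to give cell death, had 5 and 4 in line 5 and 2 and 4 in WT. The ratio of its scaled sums was 0.894, with a counting interval of 0.284 to 3.05. That ratio was 0.618 without WT replicate 1 and 1.45 without WT replicate 2. CRK7, CRK8, CRK23, CRK37, CRK38 and AT4G28670 had from 0 to 6 footprints in a library. CRK24, CRK32, CRK33 and AT4G20645 had 0 in all 4 libraries, which allows a level of up to 0.0660 to 0.0701 CPM in the line 5 libraries and up to 0.106 to 0.124 CPM in the WT libraries (3 counts, counting error only). None of these 13 genes was tested in the reported fit. With no filter on low counts 37 CRK genes were fitted, and the only CRK calls added were those of CRK41 and CRK30.

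**Figure D3:**
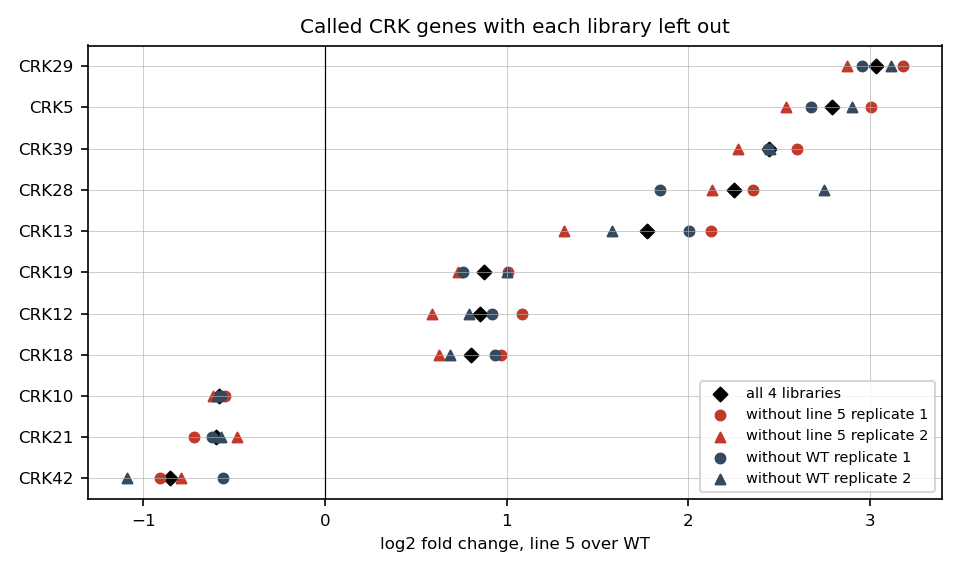
Log2 fold change, line 5 over WT, of each called CRK gene with all 4 libraries (black diamond) and with each library left out in turn (other symbols). CRK29 stays between 2.87 and 3.18, while CRK42 runs from -1.09 to -0.56.

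Along the chromosomes the members form 5 runs in which at most 3 protein-coding genes stand between neighbouring CRK genes (RefSeq gene order, TAIR10.1). The longest, from CRK5 to CRK24 on chromosome 4, holds 19 members, 14 of them tested, and 5 were called higher (CRK5, CRK12, CRK13, CRK18 and CRK19) and 2 lower (CRK10 and CRK21). Genes called in opposite directions stand within this run. The log2 fold changes of its tested genes ran from -0.60 to 2.79, with a median of 0.83. In the pair CRK28 and CRK29 both were called higher. The run from CRK36 to CRK40 has 5 members, of which 3 were tested and 1, CRK39, was called higher, while CRK40 at its end stayed at -0.03. The run from CRK30 to CRK34 has 5 members, 3 tested and 0 called by edgeR (1 at an unadjusted p under 0.05 and 1 by DESeq2, CRK30), with a median of 0.66. In the pair CRK2 and CRK3 0 were called by edgeR, 0 at an unadjusted p under 0.05 and 0 by DESeq2. Of the 8 members with no other CRK gene nearby 4 were tested, and CRK42 was called lower.

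**Figure D4:**
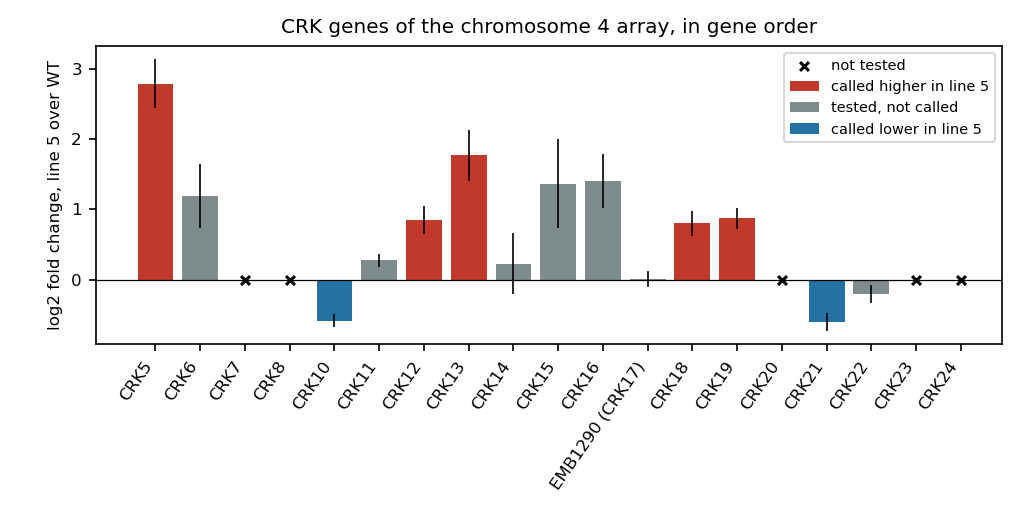
Log2 fold change, line 5 over WT, of the 19 CRK genes from CRK5 to CRK24 in gene order on chromosome 4, as bars coloured by call with error bars of 1 standard error, and crosses for members that were not tested. The 14 tested genes run from -0.60 (CRK21) to 2.79 (CRK5).

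Some genes with a CRK synonym in RefSeq do not carry the family's name in the deposited annotation and were not counted as members. ARCK1 (CRK45, AT4G11890), a kinase known to act with CRK36 in abscisic acid and osmotic stress signalling, had 273 and 363 footprints in line 5, against 159 and 23 in WT (log2 1.12 ± 0.719 SE, adjusted p = 0.315). Its WT libraries differ more from each other than WT replicate 1 does from line 5. EP1 (CRK9, AT4G23170) had 5.15 and 6.84 CPM in line 5 and 11.5 and 7.43 CPM in WT (log2 -0.66, edgeR adjusted p = 0.1496). RKF2 (CRK1, AT1G19090) had 1 and 1 footprints in line 5 and 3 and 2 in WT.

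Genes that work beside the CRKs were read from the same fit, in which 6.72% of all genes were called higher and 8.72% lower by edgeR, 7.81% higher and 11.2% lower by DESeq2, and 35.8% had an unadjusted p under 0.05. The lists were chosen with earlier results of these data known, so the share of calls in a list cannot show an excess over all genes. Some receptors of microbial patterns pair with BAK1 and signal through BIK1, though not every gene listed here belongs to such a complex. All 18 genes listed for pattern receptor complexes and their signalling were tested. Of these, 4 were called higher and 0 lower by edgeR (8 and 0 at an unadjusted p under 0.05, 5 and 0 by DESeq2). The median log2 fold change of the 18 was 0.24, or 0.47 without TMM. FLS2 (AT5G46330), the flagellin receptor, had 161 and 225 CPM in line 5, against 14.0 and 9.37 CPM in WT. Both line 5 libraries lie far above WT, a 16.5-fold difference (log2 4.04 ± 0.280 SE, adjusted p = 0.00938), larger than that of any CRK gene tested. EFR (AT5G20480), the receptor of bacterial elongation factor Tu, stood 4.21-fold higher (adjusted p = 0.0249). LORE (listed as SD1-29, AT1G61380), which senses bacterial hydroxy fatty acids, stood 3.37-fold higher (adjusted p = 0.0234), and the receptor kinase FERONIA (FER, AT3G51550) 1.64-fold (adjusted p = 0.0327). The partners BAK1 (log2 0.47 ± 0.143 SE, adjusted p = 0.0838) and BIK1 (log2 0.55, adjusted p = 0.159), named after their values were seen, did not pass the test. Without line 5 replicate 1 FLS2 alone of these 18 kept its call, and without line 5 replicate 2 none did.

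Of 10 NADPH oxidase genes, the source of apoplastic reactive oxygen species, 5 were tested and 0 were called by edgeR or by DESeq2, with 0 higher and 1 lower at an unadjusted p under 0.05. RBOHD (AT5G47910), which CRK2 phosphorylates and which was also named after its value was seen, had 205 and 204 CPM in line 5, against 247 and 340 CPM in WT (log2 -0.52 ± 0.172 SE, adjusted p = 0.0986). Its line 5 libraries lie under both WT libraries, which differ widely.

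Of 54 genes with the DUF26 domain but no kinase, secreted or plasmodesmal, 34 had no count and 12 were tested, and 3 of the 12 were called lower, where 8.72% of all genes were, and 0 higher by edgeR (5 and 1 at an unadjusted p under 0.05, 3 and 0 by DESeq2), with a median log2 fold change of -0.59. EP1 is also in this list. AT3G22060 had 57.5 and 51.2 CPM in line 5, against 92.7 and 93.0 CPM in WT (log2 -0.77, adjusted p = 0.0220). AT5G48540 (log2 -0.67, adjusted p = 0.0329) and the plasmodesmata-located protein PDLP2 (AT1G04520, log2 -0.84, adjusted p = 0.0373) were also lower. PDLP1 (AT5G43980), not called, had a log2 fold change of 0.92 (adjusted p = 0.0733). The tested CRK genes and these 12 genes share the extracellular domain, and their medians of 0.73 and -0.59 have opposite signs. The signs were the same with library totals and no TMM (0.97 and -0.35), and the difference between the lists was not tested. Without line 5 replicate 1, or without line 5 replicate 2, 0 of the 12 were called.

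WRKY factors bind promoters of many defence genes. Of 18 listed, 17 were tested, 3 were called higher (WRKY29 at 2.54-fold, WRKY26 at 3.14-fold and WRKY25 at 2.05-fold, with adjusted p of 0.0234, 0.0320 and 0.0327) and WRKY17, a negative regulator of basal resistance, was called lower (log2 -0.79, adjusted p = 0.0375). Over all genes 6.72% were called higher and 8.72% lower. The median of the WRKY genes was -0.19, and 0.05 without TMM. Of 16 salicylic acid pathway genes 12 were tested and 2 were called, about the 15.4% called over all genes. SAG101, a partner of EDS1, was called 3.002-fold higher (adjusted p = 0.00938), while ICS1, the enzyme that commits chorismate to salicylic acid, was called lower (log2 -0.94, adjusted p = 0.0249), and the median was 0.07, and 0.32 without TMM. None of the calls in these last lists was kept without line 5 replicate 1 or without line 5 replicate 2. PR1, a salicylic acid marker named after its value was seen, had no count in any library.

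**Figure D5:**
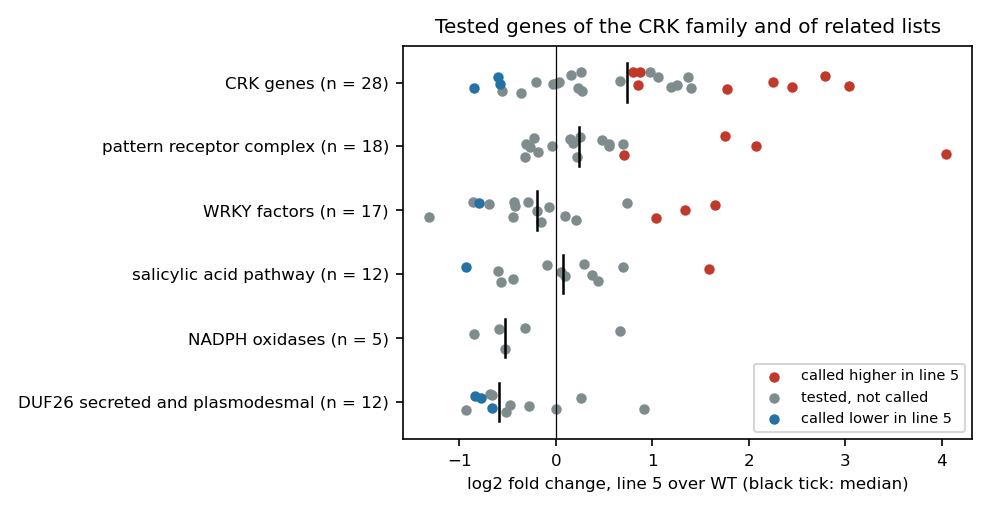
Log2 fold change, line 5 over WT, of each tested gene of the CRK family and the 5 related lists, 1 point per gene, coloured by call, with the median of each list as a line. The medians are 0.73 for CRK genes, 0.24 for the pattern receptor complexes, 0.07 for the salicylic acid pathway, -0.19 for WRKY factors, -0.52 for NADPH oxidases and -0.59 for the DUF26 proteins without a kinase.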

How the data were processed

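The authors deposited 1 table of ribosome profiling of whole seedlings, per the file headers with a count and an FPKM per gene and library. The authors' own comparison, also per the file headers, gives a p-value, an FDR and a log2 fold change. Lysates held cycloheximide and were digested with RNase I and DNase I, per the labels' protocols. Build TAIR10 and the programs DESeq2, RSEM, STAR, Bowtie2 and fastp are named in the submitters' processing notes, without versions. The authors' counts are whole numbers that may be rounded RSEM estimates, and no source used here states the test behind the authors' p-value, whether strand was used, or how reads of similar copies were divided, so values of tandem CRK copies and of genes with an antisense partner are uncertain.

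From the counts, 5 rows without an identifier (0.0145% to 0.0340% of counts) were left out, filterByExpr (minimum count 10) kept 18737 genes, and edgeR 4.0.16 (R 4.3.3, TMM, quasi-likelihood test without a covariate, Benjamini-Hochberg) compared line 5 with WT. Standard errors are the log2 fold change divided by the square root of F. DESeq2 1.42.0 was an alternative, and the others were size factors, no TMM, no filter, a minimum count of 50, no organelle genes, each library left out and a replicate block. The edgeR step was run on counts simulated with a single dispersion for all genes, to check that set fold changes were recovered. That check does not measure false calls in libraries that vary as these do. Replicate libraries differed beyond sampling noise (chi-square over degrees of freedom, 25.7 in line 5 and 39.0 in WT) and were each counted.

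Names came from the RefSeq table of TAIR10.1, which matched all 41 members; no coordinates are printed because that build's name differs. The members and lists were chosen with earlier results of these data known. Genes named are every called CRK gene, the 6 uncalled with the highest FPKM, the 3 uncalled with the smallest adjusted p, untested members, and called genes of each list. Protein and promoter sequences were not analysed here.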

Additional observations from a re-analysis of the deposited data

How the results depend on the processing

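CRK29 was called higher under all 11 alternatives. DESeq2, RLE size factors, no filter on low counts and leaving out organelle genes kept all 8 higher and 3 lower CRK calls, and a minimum count of 50 kept 7 and 2. The labels do not say that replicate numbers pair the libraries, and the numbers correlated at -0.117 over 18737 genes. With the replicate block, calls over all genes were 286 higher and 457 lower, CRK calls were 4 higher (CRK39, CRK29, CRK5 and CRK19) and 0 lower, pattern receptor calls 1 higher, WRKY calls 0 higher and 0 lower, and DUF26 calls without a kinase 0 lower. With library totals and no TMM, 3355 genes were called higher over all genes. There CRK calls were 0 lower, DUF26 calls 1 higher and 1 lower, WRKY calls 0 lower, pattern receptor calls 10 higher and salicylic acid calls 4 higher. DESeq2 called 3 WRKY genes lower. The median log2 fold change of tested CRK genes was 0.97 without TMM, 0.27 at a minimum count of 50, and 0.36 to 0.94 with a library left out. Leaving out each library in turn gave 25 to 2197 higher and 3 to 2904 lower calls over all genes, and 1 to 11 higher and 0 to 4 lower CRK calls. For the lists it gave 0 to 4 DUF26 calls lower, 0 to 1 NADPH oxidase calls lower, 0 to 4 WRKY calls higher and 0 to 7 lower, 0 to 7 pattern receptor calls higher and 0 to 2 lower, and 0 to 3 salicylic acid calls higher and 0 to 4 lower. Without WT replicate 1, CRK30, CRK6 and CRK14 joined the higher calls. The cause of these shifts was not tested. Signs turned for CRK40 (-0.03 in the reported fit, 0.22 without TMM, -0.24 to 0.22 with a library left out), CRK2 (0.03, and -0.091 to 0.17), CRK17 (EMB1290, 0.01, and -0.060 to 0.085), CRK14 (0.23, and -0.30 to 1.097), CRK25 (0.15, and -0.49 to 1.53), CRK22 (-0.20, and 0.035 without TMM) and the root marker SHR (-0.080, 0.16 without TMM, and -0.22 to 0.049). No value with a turned sign was called, though CRK14 was called higher, with its sign kept, without WT replicate 1. Over the 53 tested genes named with values, 464 values under alternatives kept direction and side of the threshold, 21 gained a call, 77 lost it and 12 turned sign. Depth limits the 13 untested members, and 2 libraries per group limit every p-value.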
